A study of Homo sapiens with 12 samples.

Results

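NCI-H716 is an established line that the labels describe as a colorectal cancer line whose miR-200 loci are methylated, and its response to returned miR-200 clusters was read on 4 arrays of the 12 in the series. The arrays were chosen by their cell line label alone. They hold 1 control, 1 array of cells with the miR200c141 construct (miR-200c and miR-141), 1 with the miR200ba429 construct (miR-200b, miR-200a, miR-429) and 1 with both clusters. The other 8 arrays come from HUTU-80 (4) and MDST8 (4), which share the label of methylated miR-200 loci. Constructs were delivered by lentivirus, transduced cells were sorted for GFP after 48 hours, and RNA was extracted on day 7. For both clusters, part of the miR200ba429 cells received the second virus 24 hours after sorting, so these cells had an extra transduction. The labels do not state which virus, if any, the control cells were given, nor whether the 4 RNAs came from separate cultures, so any spread between them may be technical. Each construct has 1 array, and every difference below was taken from the same control array, so an error in that array enters them all.

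The miR-200 family is known for guarding the epithelial state. Its members repress ZEB1 and ZEB2, transcription factors that bind E-box sequences in the promoters of epithelial genes and keep those genes off, and the ZEB factors repress the miR-200 genes in turn. NCI-H716 cells are also widely used as a model of the enteroendocrine L cell, the gut cell that releases glucagon-like peptides.

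The mature sequences of the 5 microRNAs, from the RefSeq records on GRCh38.p14, are shown because the seed, bases 2 to 8 (in capitals), decides which messenger RNAs a microRNA pairs with. Each construct carries both seeds of the family, and they differ by a single base.
hsa-miR-200c-3p: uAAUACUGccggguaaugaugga
hsa-miR-141-3p: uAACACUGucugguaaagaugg
hsa-miR-200b-3p: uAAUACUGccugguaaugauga
hsa-miR-429: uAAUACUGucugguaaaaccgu
hsa-miR-200a-3p: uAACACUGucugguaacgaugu
The first pair, of the miR200c141 construct, lies at chr12:6963742-6963764 and chr12:6964155-6964176, both on the plus strand. The rest, of the miR200ba429 construct, lie at chr1:1167160-1167181, chr1:1169055-1169076 and chr1:1167916-1167937, also on the plus strand. The levels of the microRNAs themselves were not analysed here.

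Values are log2 intensities on one scale for all arrays, called levels below, with 1 probe set per gene over 19774 genes. A level at or below 5.429, the highest nonspecific control probe set on any array, is called background. On the NCI-H716 arrays 9378 to 9471 genes lay above it, and these arrays correlated with each other across genes at 0.981 to 0.994, against at most 0.863 with arrays of the other lines. The array with both clusters had the highest difference between 3′ and 5′ probe sets of ACTB, a sign of RNA quality, at 2.626 against 2.327 to 2.405 on the line's other arrays, and of GAPDH, at 0.351 against 0.271 to 0.325. These values stand beside every gene group on that array, and their part in the results was not tested.

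The line matched its enteroendocrine reputation in part. Of 30 measured enteroendocrine genes 16 were at background in the control, and the list's median level there was 5.29. GCG, the glucagon precursor, stood at 13.18 in the control, the vesicle protein CHGB at 11.33, CHGA at 10.01 and the hormone-cell transcription factor ISL1 at 10.46, while PYY, another L cell hormone, was at background (3.50). Of 35 measured mesenchymal markers 22 were at background in the control, and the list's median level there was 3.79. Those well above it included COL3A1 at 11.98, LUM at 10.95 and FAP at 10.09, and the filament protein VIM stood at 11.95. EPCAM, an epithelial adhesion molecule, stood at 9.29 and CDH1, the epithelial cadherin, at background (4.01). All 14 measured endothelial markers and 19 of 20 immune cell markers were at background on the control array. The remaining one, LYZ, a lysozyme that gut secretory cells also make, stood at 7.97.

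The first question was whether known miR-200 targets were lower with the constructs in this line. ZEB1 stood at 10.15 in the control, at 8.43 with miR200c141, 8.85 with miR200ba429 and 8.34 with both clusters, lower on 3 of 3 arrays by a mean of −1.60 ± 0.23 (SE, 3 arrays against 1). It was not called by the test over all genes (limma adjusted p = 0.0955). ZEB2 was at background on all 4 arrays (3.04 to 3.37), so no lower level could be measured. The RNA-binding protein QKI, another target, was also at background throughout in the probe set used (3.25 to 4.46).

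RECK, a membrane inhibitor of metalloproteinases, stood at 8.13 in the control, 5.32 with miR200c141, 6.89 with miR200ba429 and 4.77 with both clusters. VASH2, an enzyme that acts on tubulin, stood at 6.59 in the control and at 4.11, 4.84 and 3.45 in the same order, and WASF3, an organiser of actin, at 6.23 and then 3.85, 4.86 and 3.98. All 3 construct levels of VASH2 and of WASF3 were at background, so they have no order. With ZEB1 these were the 4 of 57 measured targets that lay at least 1 log2 unit below the control on all 3 arrays, while none lay that far above. Over all genes 0.207% lay that far below and 0.46% that far above. With the mean of all probe sets 1 target, WASF3, lay that far below. RECK was then at −0.72 in place of −2.47, ZEB1 at −1.03 in place of −1.60 and VASH2 at −1.52 in place of −2.46. With a limit of 1.5 log2 units 1 target, VASH2, passed. The median difference of the targets was −0.24 with miR200c141, −0.16 with miR200ba429 and −0.27 with both clusters, against 0.01, −0.02 and −0.02 over all genes, and limma called no target.

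Several targets lay further down with both clusters than with miR200ba429 alone. CFL2, an actin-severing cofilin with a control level of 10.98, differed by −1.55, −0.63 and −2.50 with miR200c141, miR200ba429 and both clusters. TET1, a DNA demethylase, differed by −1.30, −0.63 and −3.08, and the collagen cross-linking enzyme LOX by −2.19, −0.81 and −3.33. SEC23A, which coats vesicles leaving the endoplasmic reticulum, differed by −1.09, −0.16 and −1.54. With 1 array per construct these orders have no test. They are also common among genes at large. Of the 9908 genes above background on at least 1 array, 59% lay farthest from the control with both clusters. With miR200ba429 48% lay nearest to it. The targets BMI1, SUZ12, JAG1 and CTNNB1, well above background, differed by 0.26 at most in size on any array.

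The second question was which genes moved on all 3 arrays. A gene counted as moved when its level differed from the control by at least 1 log2 unit (2-fold) in the same direction on each array, with the control or all 3 construct arrays above background. This is a description of these arrays, with no test. By it 91 genes were higher (0.46%) and 41 were lower (0.207%). Where 3 values follow a control level, they are those of miR200c141, miR200ba429 and both clusters, in that order. Of the higher genes 47 were at background in the control, so their differences are differences of signal, limited below by background. All 41 lower genes were above background in the control, and 24 of them were at background on all 3 construct arrays. The last genes inside the limit were GUCA2A (1.015) and PHC1 (−1.005), and the first outside it HSPB8 (0.995) and MTURN (−0.999).

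**Figure D1:**
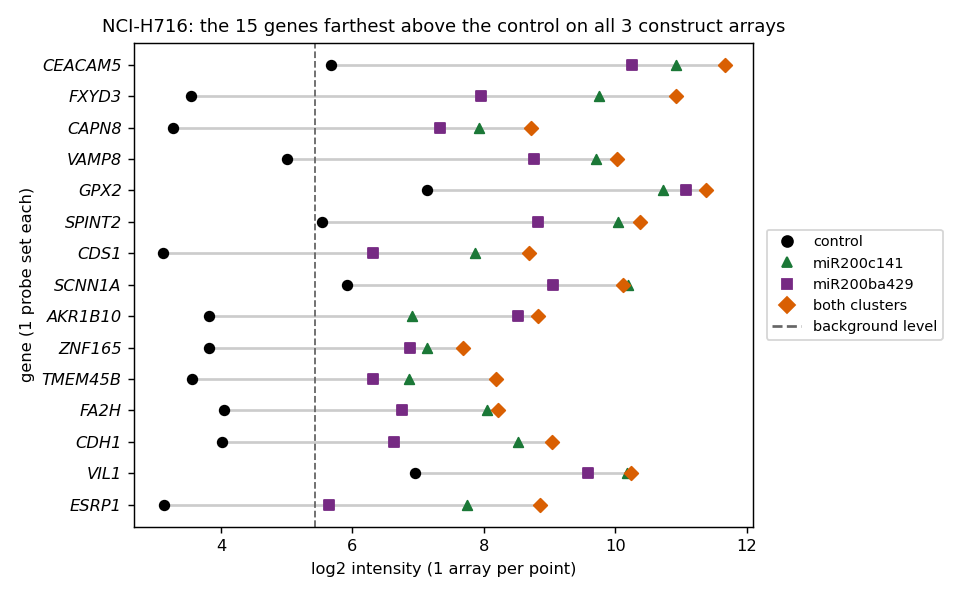
Levels (log2 intensity, horizontal axis) of the 15 genes whose smallest difference above the control was greatest, 1 point per array and 1 row per gene, with the background level dashed. In every row the control (black circle) lies lowest, from 3.11 for CDS1 to 7.13 for GPX2, and all construct arrays lie at 5.64 or more.

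Genes known from the lining of the gut were among those with the greatest differences. The greatest mean difference was that of FXYD3, a regulator of the sodium pump, which stood at 3.54 in the control and at 9.75 with miR200c141, 7.95 with miR200ba429 and 10.93 with both clusters. It did not pass the test (6.01 ± 0.89, limma adjusted p = 0.1011). CEACAM5, a surface glycoprotein of gut epithelium, stood at 5.68 in the control and at 10.93 with miR200c141, 10.25 with miR200ba429 and 11.67 with both clusters. Its relative CEACAM6 stood at 9.13 in the control and at 11.99, 11.52 and 12.11. GPX2, a glutathione peroxidase of gut epithelium, stood at 7.13 in the control and at 10.73, 11.07 and 11.38. Each of these genes was well above the control on 3 of 3 arrays, and GPX2 was the one of them whose miR200ba429 level exceeded its miR200c141 level. By limma CEACAM5 rose by 5.27 ± 0.44 (SE, 3 arrays against 1, adjusted p = 0.0121), CEACAM6 by 2.75 ± 0.21 (0.0121) and GPX2 by 3.93 ± 0.23 (0.0029). With the mean of all probe sets CEACAM5 was at 2.46 and no longer passed, and GPX2 was at 3.01 and no longer passed.

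VIL1, the microvillar actin bundler villin, stood at 6.95 in the control and at 10.18, 9.58 and 10.24 and rose by 3.05 ± 0.26 (limma adjusted p = 0.0121). VAMP8, a protein of vesicle fusion at the apical membrane, stood at background (5.01) in the control and at 9.70, 8.76 and 10.02 and rose by 4.48 ± 0.42 (0.0157). SCNN1A, the alpha subunit of the epithelial sodium channel, stood at 5.92 in the control and at 10.20, 9.05 and 10.11 and rose by 3.86 ± 0.41 (0.0254), but was at 1.60 and no longer passed with the mean of all probe sets. CAPN8, a calpain of the gut, stood at background (3.27) in the control and at 7.92, 7.34 and 8.71 and rose by 4.72 ± 0.47 (0.0200). EPCAM stood at 9.29 in the control and at 12.18, 11.61 and 12.38 and rose by 2.77 ± 0.26 (0.0157). The tetraspanin TSPAN1, at 8.76 and then 11.09, 10.84 and 11.41 (2.36 ± 0.20, 0.0121), and the zinc finger gene ZNF165, at 3.82 and then 7.13, 6.88 and 7.68 (3.41 ± 0.35, 0.0254), completed the 10 genes that limma called, 0.0506% of those tested, all of them higher.

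No gene (0%) was called lower by limma, while 1662 genes in either direction had an unadjusted p under 0.05. The test takes its spread from 3 arrays with different constructs and assumes that the lone control varies as they do. Its calls depended on single arrays and on the moderation. Without the miR200c141 array 2 genes were called, of which 1 was among the 10. Without the miR200ba429 array 336 were called and without the array with both clusters 47, in both cases with all 10 among them. No gene was called without a trend of variance on level, and with genes at background on all arrays left out GPX2 alone was called. With the spread pooled over the 3 lines 30 genes were called, 23 higher and 7 lower, with 7 of the 10 among them. An exact permutation test with 3 arrays against 1 cannot go below 0.25.

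Junction genes were next. CDH1 stood at background (4.01) in the control and at 8.52 with miR200c141, 6.64 with miR200ba429 and 9.03 with both clusters, on average 2.63 log2 units above the background level (limma adjusted p = 0.1952). PATJ, a tight junction scaffold, stood at 5.04 in the control and at 6.92, 6.98 and 7.36, and the tight junction protein CGN at 5.83, then at 7.43, 6.89 and 7.54. With EPCAM these were the 4 of 28 measured junction genes that were higher on all 3 arrays, against 0.46% of all genes, and none was lower. Of the 28 genes 22 were above background on at least 1 array, against 9908 of all 19774 genes. This list, like the others here, was drawn up with earlier results of these data known, so its count is not independent evidence. With the mean of all probe sets 2 were. The claudins CLDN4 and CLDN7, already present in the control at 7.44 and 7.79, differed by 0.77 to 1.34, and the desmosomal genes DSP, DSG2 and JUP by 0.06 to 0.63. The junction protein MARVELD3 stood at 3.18 in the control and at 6.33, 5.28 and 7.28, and lay outside the count because its miR200ba429 level was at background. The list median was 0.77, 0.52 and 0.63 with miR200c141, miR200ba429 and both clusters.

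Regulators of the epithelial programme included genes that were silent in the control. ESRP1, an epithelial splicing regulator, stood at 3.13 in the control and at 7.75, 5.64 and 8.85. OVOL2, a transcription factor that represses ZEB1, stood at 4.10 in the control and at 6.59, 5.47 and 7.31. CDS1, which makes a precursor of phosphatidylinositol, stood at 3.11 in the control and at 7.87, 6.32 and 8.68. In each of the 3 genes the array with both clusters was highest and the miR200ba429 level lay less than 1 log2 unit above background. The list also holds epithelial genes of other function, such as CDS1 and TMC4. Of its 24 measured genes 7 were higher on all 3 arrays, against 0.46% of all genes, and none was lower. They were ESRP1, OVOL2, ELF3, CDS1, LAMB3, EXPH5 and TMC4, and 6 of them rose from background. With the mean of all probe sets 2 were higher on all 3. ELF3, the one above background in the control, stood at 7.31 and then at 8.41, 8.34 and 8.85. The transcription factors EHF, KLF5 and FOXA1, present in the control at 8.38 to 10.04, differed by 0.45 at most.

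Serine protease inhibitors of the cell surface were higher on all 3 arrays. SPINT2, which inhibits matriptase, stood at 5.54 in the control and at 10.04, 8.83 and 10.37 (limma adjusted p = 0.0583). SPINT1 stood at 3.70 in the control and at 6.53, 5.45 and 7.22. Their protease ST14, matriptase itself, stood at 3.61 in the control and at 6.87 with miR200c141 and 7.82 with both clusters but stayed at background with miR200ba429 (4.49). ARL14, a small GTPase of vesicle traffic, stood at 4.16 in the control and at 5.89, 5.61 and 6.41. With VAMP8 and VIL1, 5 of the 26 measured genes of apical traffic and surface proteases, counting SPINT1, SPINT2 and ARL14 but not ST14, were higher on all 3 arrays, against 0.46% of all genes, and none was lower.

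The intestinal list held the most moved members, 10 of 38 higher and none lower, that is 26.3% against 0.46% of all genes. Since this list, like the target, junction, regulator and apical lists, was drawn up with results of these arrays known, none of these counts is independent evidence. Beside CEACAM5, CEACAM6 and GPX2 it comprised REG4, a secreted lectin (4.51 in the control, then 7.93, 6.88 and 9.13), the surface mucin MUC1 (4.18 in the control, then 7.26, 6.48 and 7.16), TFF1, a trefoil peptide (6.22 in the control, then 9.14, 8.24 and 9.67), and the secreted mucin MUC5AC (6.43 in the control, then 8.25, 8.09 and 9.55). The remaining genes, LGALS4, CEACAM1 and GUCA2A, had smallest differences of 1.02 to 1.10. Other gut genes were high in the control and hardly differed. AGR2 stood at 13.12 and CDH17 at 10.89, with differences of 0.19 at most, and SI, the brush border sucrase, at 10.77 with 0.29 to 0.51. KRT19, a keratin of simple epithelia, stood at 7.68 in the control and at 9.55, 9.02 and 9.53, while VIM differed by −0.77, −0.17 and −1.26.

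The enteroendocrine genes GCG, CHGA and CHGB, well above background in the control, differed little from it. GCG differed by −0.06, 0.03 and −0.18 with miR200c141, miR200ba429 and both clusters, CHGA by −0.26, −0.20 and −0.41 and CHGB by −0.23, −0.11 and −0.24. Of 30 measured enteroendocrine genes 1 was higher on all 3 arrays (3.33%, against 0.46% of all genes) and none was lower. It was the neurotensin precursor NTS, which stood at 5.41 in the control and at 7.29, 6.83 and 8.12. The list median was −0.02, −0.10 and −0.15. No gene of the cell cycle, interferon, p53 target or mesenchymal lists moved on all 3 arrays. CDH2 was at background throughout. COL1A1, a fibrillar collagen on the mesenchymal list, stood at 3.19 in the control, 6.72 with miR200c141, 5.12 (background) with miR200ba429 and 7.57 with both clusters. PDGFRA, a growth factor receptor of mesenchymal cells, stood at 7.18 and then at 4.78, 6.22 and 4.33, less than 1 log2 unit below the control with miR200ba429. The cell cycle median was −0.07, −0.12 and −0.34, lowest on the array whose ACTB and GAPDH values are given above. LYZ, the immune marker above background, stood at 7.97 in the control and at 10.14, 9.45 and 10.65.

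**Figure D2:**
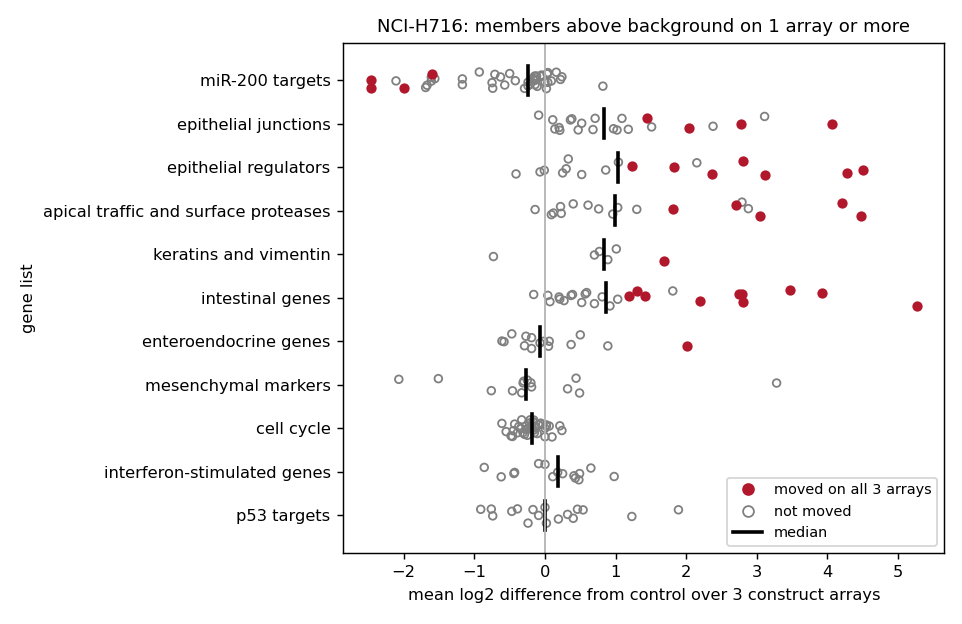
Mean log2 difference from the control over the 3 construct arrays (horizontal axis) for list members above background on at least 1 NCI-H716 array, with members that moved on all 3 arrays in red and the list median as a bar. The junction, regulator, apical and intestinal lists reach 4.06 (CDH1), 4.51 (CDS1), 4.48 (VAMP8) and 5.27 (CEACAM5), and the targets reach −2.47 (RECK).

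The lower genes are of varied function. PTH2R, a receptor of the parathyroid hormone family, stood at 6.91 in the control and at 3.95 with miR200c141, 4.75 with miR200ba429 and 3.64 with both clusters. MFAP4, a microfibril-associated glycoprotein, stood at 8.25 in the control and at 4.92, 6.55 and 3.34. CHRNA3, a nicotinic acetylcholine receptor subunit, stood at 6.99 in the control and at 4.55, 5.64 and 3.79. SIX3, a homeobox factor, stood at 6.14 in the control and at 4.81, 4.13 and 3.95. In PTH2R and SIX3 all construct arrays were at background, so the size of the difference in expression is not known. None passed limma's test (adjusted p = 0.1339 for PTH2R, 0.4168 for MFAP4, 0.3658 for CHRNA3 and 0.2412 for SIX3).

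Other genes of this group were ITM2A, a membrane protein, the tubulin-binding TPPP3, the desaturase SCD5, the protocadherin PCDH18, SEPTIN6, SHISA3, the protein kinase A subunit PRKAR2B, the cytokine receptor IL20RB and the transcript UG0898H09. Their smallest differences ran from −1.36 for IL20RB to −1.99 for UG0898H09. SCD5 kept a level above background with miR200c141 (5.65) and miR200ba429 (5.67), and SHISA3 with 5.59 and 5.76. The rest were at background on all 3 construct arrays. With all probe sets averaged, the mean difference was −0.35 for SCD5 (in place of −1.92) and −0.49 for SEPTIN6 (−1.59). It was −1.32 for UG0898H09 (−2.28), −1.31 for PCDH18 (−1.65) and −2.16 for ITM2A (−2.25), and unchanged for the others.

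**Figure D3:**
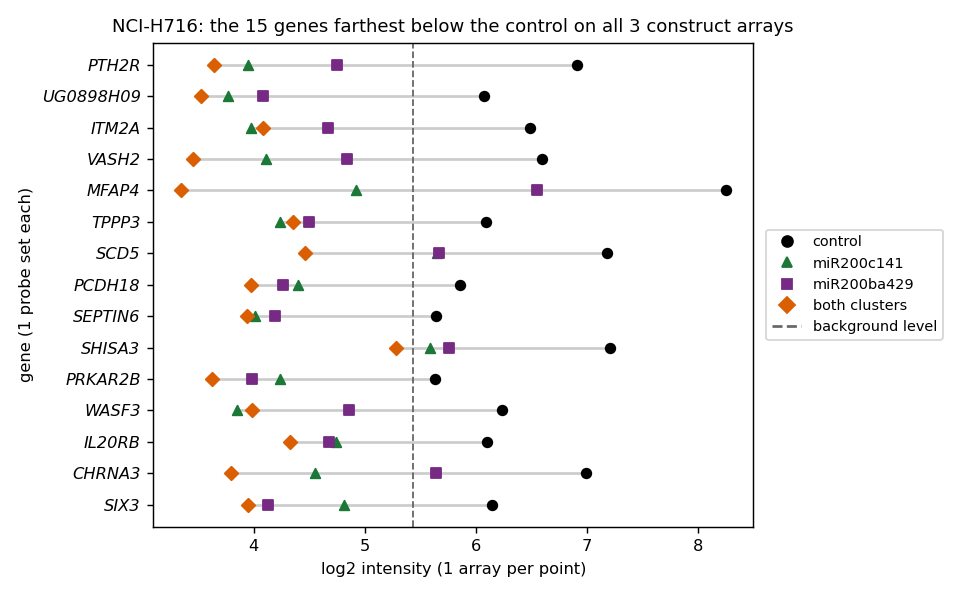
Levels (log2 intensity, horizontal axis) of the 15 genes whose smallest difference below the control was greatest, 1 point per array and 1 row per gene, with the background level dashed. In every row the control (black circle) lies highest, from 5.63 for PRKAR2B to 8.25 for MFAP4, and most construct arrays lie left of the background level.

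A wider count took genes at background in the control and above it on all 3 construct arrays, whatever the size of the difference. There were 127 such genes, 0.642% of those tested, and 47 of them also moved by at least 1 log2 unit. In the opposite direction 129 genes went to background on all 3 arrays (0.652%), and 24 of them also moved. The rest crossed the level by smaller steps. Among them were CRB3, a polarity protein of tight junctions, which differed by 1.43, 0.89 and 1.22 from a control level of 5.14, and the receptor NOTCH1, which differed by −1.34, −0.91 and −1.26 from 6.30.

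The 3 arrays differed in how many genes moved. With miR200c141 235 genes were at least 1 log2 unit higher (1.19%) and 153 lower (0.774%), with miR200ba429 132 higher (0.668%) and 80 lower (0.405%), and with both clusters 446 higher (2.26%) and 464 lower (2.35%). Of the 91 higher genes 74 had their highest level with both clusters and 76 their lowest with miR200ba429. Over the 9908 genes above background on at least 1 array, 59% lay farthest from the control with both clusters and 48% nearest to it with miR200ba429. The median difference of the 91 genes was 2.16, 1.60 and 2.47 with miR200c141, miR200ba429 and both clusters. AKR1B10, an aldo-keto reductase, ran otherwise, with 3.81 in the control, 6.91 with miR200c141, 8.52 with miR200ba429 and 8.82 with both clusters. The extra transduction, the single array and the 3′ to 5′ values of the array with both clusters cannot be told apart from the constructs.

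**Figure D4:**
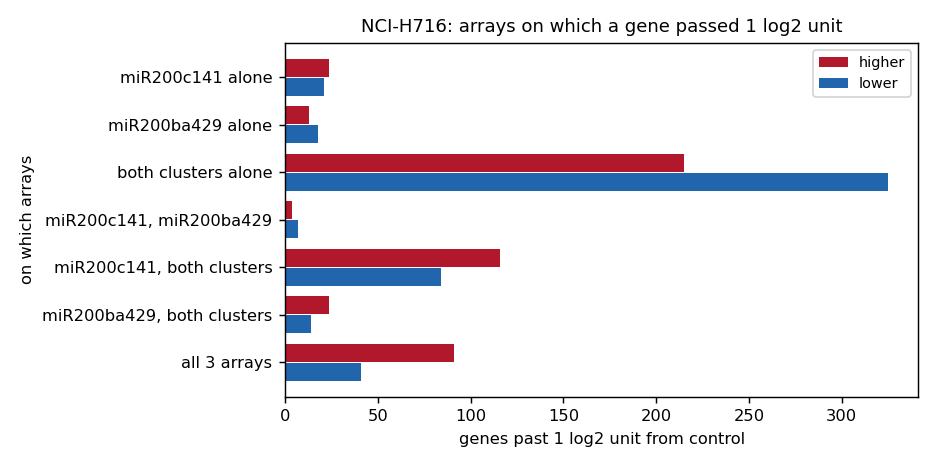
Number of genes (horizontal axis) at least 1 log2 unit higher (red) or lower (blue) than the NCI-H716 control, by the array or arrays on which they passed. The longest bars are the genes that passed with both clusters alone (215 higher and 325 lower), followed by those shared by miR200c141 and both clusters (116 and 84) and by all 3 arrays (91 and 41).

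The promoters of the moved genes were searched for CAGGTG, the E-box that ZEB factors are known to bind, on both strands, in the window from 250 bases before to 50 bases after the start given by RefSeq on GRCh38.p14. Of the 91 higher genes 63 matched a promoter, and 33 of these (52.4%) held the motif. The other higher genes, CDH1 and VAMP8 among them, had no matching promoter and were not searched. Of the 41 lower genes 30 matched, and 3 (10%) held it. Among the 15399 array genes with a promoter the share was 19.6%, and among all 27305 promoters 20.6%. At least 2 copies stood in 14 promoters of higher genes (22.2%), against none of the lower genes and 3.04% of array genes. The E-box CAGCTG, searched for comparison, stood in 20.6% of the higher, 13.3% of the lower and 17.7% of the array genes. Median GC content was 61.7%, 65.2% and 63% in the same order. A match is a description of these letters, and no test was made of the shares.

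CAGGTG and its reverse complement CACCTG are in capitals below. The 250 bases before the start of 5 of these genes follow, 5′ to 3′ on the gene's strand. They are shown because CEACAM5, CAPN8 and CDS1 were among the highest differences and MUC1 and TMC4 hold 2 copies each.
CEACAM5: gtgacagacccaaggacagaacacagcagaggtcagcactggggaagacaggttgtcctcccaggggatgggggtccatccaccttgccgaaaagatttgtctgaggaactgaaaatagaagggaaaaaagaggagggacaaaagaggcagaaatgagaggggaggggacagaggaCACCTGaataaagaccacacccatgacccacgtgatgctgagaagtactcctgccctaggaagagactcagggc
CAPN8: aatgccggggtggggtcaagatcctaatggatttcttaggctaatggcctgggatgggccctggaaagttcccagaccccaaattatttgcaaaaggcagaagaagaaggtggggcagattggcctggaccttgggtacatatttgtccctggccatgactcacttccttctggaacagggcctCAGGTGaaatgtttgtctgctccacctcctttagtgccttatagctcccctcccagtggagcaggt
CDS1: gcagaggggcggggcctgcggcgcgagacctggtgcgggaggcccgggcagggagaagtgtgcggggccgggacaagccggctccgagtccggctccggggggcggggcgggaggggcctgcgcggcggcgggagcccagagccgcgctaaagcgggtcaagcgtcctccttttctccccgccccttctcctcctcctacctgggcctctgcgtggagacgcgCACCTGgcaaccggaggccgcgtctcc
MUC1: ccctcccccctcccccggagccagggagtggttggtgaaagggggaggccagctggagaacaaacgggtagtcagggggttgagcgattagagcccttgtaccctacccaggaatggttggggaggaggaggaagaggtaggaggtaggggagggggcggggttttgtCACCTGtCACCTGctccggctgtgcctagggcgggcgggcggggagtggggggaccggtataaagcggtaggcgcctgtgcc
TMC4: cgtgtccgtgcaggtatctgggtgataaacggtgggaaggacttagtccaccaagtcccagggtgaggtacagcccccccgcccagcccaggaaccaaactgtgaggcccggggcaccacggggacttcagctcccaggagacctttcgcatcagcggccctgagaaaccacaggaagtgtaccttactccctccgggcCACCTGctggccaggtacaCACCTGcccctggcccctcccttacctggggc
They lie at chr19:41708376-41708625 (plus strand), chr1:223665702-223665951 (minus strand), chr4:84582877-84583126 (plus strand), chr1:155192916-155193165 (minus strand) and chr19:54173161-54173410 (minus strand). The single motifs begin 74, 66 and 27 bases before the start in CEACAM5, CAPN8 and CDS1, and the pairs begin 82 and 75 bases before it in MUC1 and 51 and 32 in TMC4. TMC4, an epithelial channel-like membrane protein, stood at 3.58 in the control and at 7.17 with miR200c141, 5.51 with miR200ba429 and 7.44 with both clusters.

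The last question was what set NCI-H716 apart from the other lines. The change with any construct in NCI-H716 was compared with the mean of the changes in HUTU-80 and MDST8 by limma over 11 samples. Here too the spread comes from arrays with different constructs within a line, and each line's lone control is assumed to vary as they do. The test called 6 genes, 5 with a greater change in NCI-H716 (0.0253% of genes) and 1 with a lower one (0.00506%). They were CEACAM5, with a difference of 5.64 ± 0.56 (SE, adjusted p = 0.0271), CAPN8 (4.81 ± 0.53, 0.0343), GPX2 (3.66 ± 0.43, 0.0368), CEACAM6 (2.82 ± 0.34, 0.0368), VIL1 (3.23 ± 0.41, 0.0399) and NRIP2 (−2.07 ± 0.25, 0.0368). In the controls of HUTU-80 and MDST8 all 6 were at background, at 2.71 to 3.79. NRIP2 was at background on every array, also in NCI-H716 (4.78 in the control and 2.93 to 3.16 with a construct), so its difference is one of background signal. Without HUTU-80 no gene was called, and without MDST8 CEACAM5, GPX2 and VIL1 of the 6 were.

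Other genes did not pass this test, which does not show that the lines responded alike. HUTU-80 has no array with both clusters but 2 with miR200c141. The labels of these 2 give different ratios, whose meaning is not stated, so they may not be plain replicates. VAMP8 was 3.75 and 3.73 above the HUTU-80 control with miR200c141 and 2.78 with miR200ba429. In MDST8 it was 5.35 above the control with miR200c141, 0.20 with miR200ba429 and 6.75 with both clusters. Its difference between lines was 0.80 ± 2.27, and −0.17 without the MDST8 miR200ba429 array. EPCAM was 4.86 to 6.21 above the HUTU-80 control but −0.22 to −0.12 in MDST8, where its control was at background, and its difference between NCI-H716 and the other lines was 0.11 ± 0.52, and −2.70 without MDST8. CDH1 (2.75 ± 0.91, adjusted p = 0.7157) and ESRP1 (4.37 ± 1.08, 0.4668) were not called. Of the 91 genes higher in NCI-H716, 7 were also at least 1 log2 unit higher on all 3 construct arrays of HUTU-80 (7.69%, against 0.273% of all genes): CDS1, EPCAM, SEL1L3, SLC27A2, TMC4, VAMP8 and ZNF165. None was so on all 3 arrays of MDST8 (0.116% of all genes). Since every array must pass, a single array can keep a gene out, as the miR200ba429 array did for VAMP8 in MDST8. Of the 41 lower genes ZEB1 and RECK were also lower in HUTU-80 (4.88%, against 0.0961%) and none in MDST8 (0.223%). On every array of HUTU-80 62 of the 91 higher genes were at background, and 60 on every array of MDST8.

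**Figure D5:**
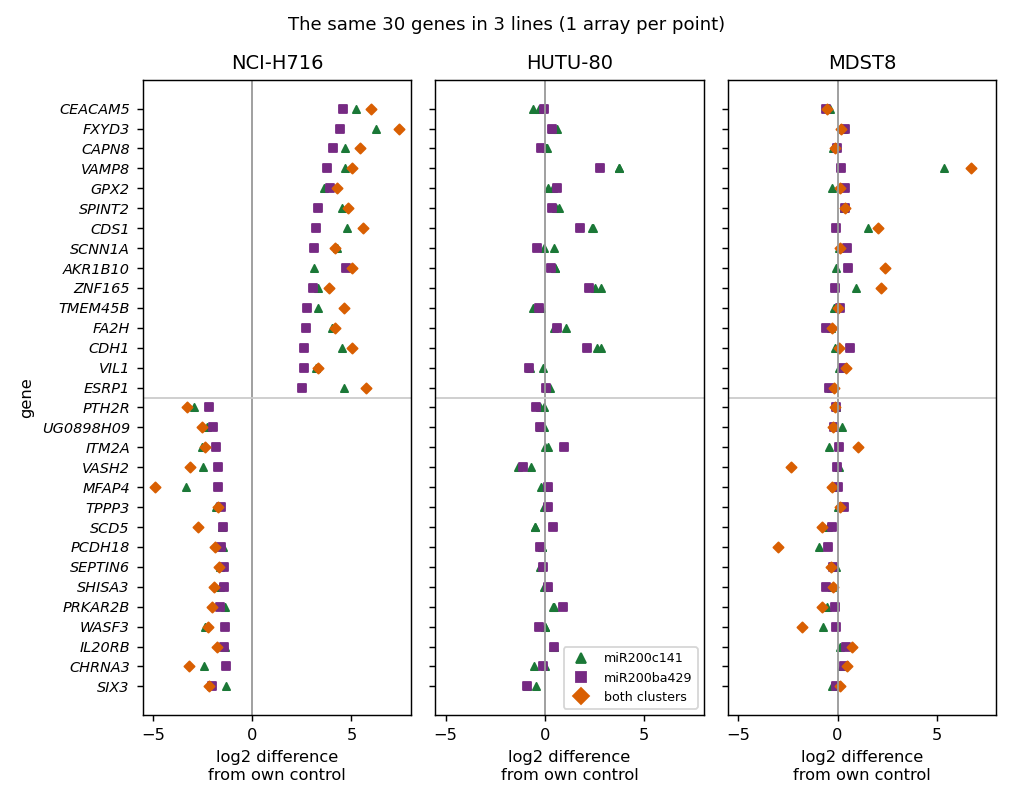
Log2 difference from the line's own control (horizontal axis) for the 15 highest and 15 lowest genes of NCI-H716, 1 point per array, in NCI-H716, HUTU-80 and MDST8. The NCI-H716 points lie at 2.50 or more, or at −1.33 or less, because the genes were chosen there. CEACAM5, CAPN8 and VIL1 lie between −0.81 and 0.41 in the other lines, while VAMP8 reaches 3.75 in HUTU-80 and 6.75 in MDST8.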

How the data were processed

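RNA of the 4 NCI-H716 samples was hybridised to Affymetrix U133 Plus PM arrays. The deposited log2 intensities come from RMA, according to the submitters' processing notes, without a version or settings. Of 54715 probe sets 40914 named 1 gene, 864 several and 12931 none. Each of 19774 genes was given its probe set with the highest mean level over the 12 arrays. Background (5.429) is the highest of 23 nonspecific control probe sets.

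Tests used limma 3.58.1 in R 4.3.3 with variances moderated along a trend on level, and p-values were adjusted by Benjamini-Hochberg over the 19774 genes, with calls at 0.05. The test of any construct had 2 residual degrees of freedom and the line difference 5. For the latter the pair of HUTU-80 miR200c141 arrays, labelled with different unexplained ratios, was averaged to 1 sample. Both were also run on a simulation, which added the same change to every NCI-H716 construct array. Its noise was independent between arrays, with a spread pooled over the lines. It left out differences between constructs, so its rates need not hold for these arrays. On simulated data for 19774 genes, the test of any construct recovered 15% of changes of 1 log2 unit and 90% of 2, with 15 false calls. The line difference recovered 17% and 88%, with 6 false calls. The genes named by rule were the 15 higher and 15 lower moved genes with the greatest smallest difference, moved list members, 11 further genes (ZEB1, ZEB2, QKI, CDH1, EPCAM, ESRP1, VIM, CDH2, CHGA, GCG and PYY) and the 5 greatest line differences in each direction; others, such as TSPAN1 and list members that did not move, were chosen after their values were seen. The genes, lists and comparisons were chosen with earlier results of these data known. Alternatives changed the threshold, background, probe set rule, centring, moderation and the arrays used. The number of arrays limits the precision. SW620 cells were not analysed here.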

Additional observations from a re-analysis of the deposited data

Results flagged for a closer look

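For 6 genes the change with any construct in NCI-H716 differed from the mean change in HUTU-80 and MDST8 by limma's test of the difference. The differences were 5.64 for CEACAM5, 4.81 for CAPN8, 3.66 for GPX2, 3.23 for VIL1 and 2.82 for CEACAM6, each with 3 of 3 NCI-H716 construct arrays above the control. The difference was −2.07 for NRIP2, whose level was at background on every array. Of 12835 probe sets with no gene name, which no comparison above uses, 42 (0.327%) were at background in the NCI-H716 control and above it on all 3 construct arrays. This share is below the 0.642% of genes that were so, but each gene was read by its probe set with the highest mean level, an unlike selection. By the rule for moved genes 10 unnamed probe sets were higher (0.0779%) and 4 lower (0.0312%) on all 3 arrays.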

How the results depend on the processing

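No paired analysis was possible because each construct has 1 array in this line. Under the alternatives run, 8 single-gene values that limma did not call changed sign, giving 12 values of the other sign. For any construct, ZEB2 (0.01, at background) was at −0.04 with probe sets averaged, −0.01 with centring and −0.07 to 0.10 with 1 construct array left out. PYY (−0.04, at background) was at −0.09 to 0.02 with 1 left out. For the line difference, without MDST8 EPCAM was at −2.70 and CDH2 at 0.15, and without the arrays with both clusters they were at −0.04 and 0.03. Without the MDST8 miR200ba429 array VAMP8 was at −0.17 and ZEB1 at 0.08. With probe sets averaged QKI was at 0.41 and SEPTIN6 at 0.18. With a limit of 1.5-fold in place of 1 log2 unit, 226 genes were higher and 194 lower on all 3 arrays, and with 1.5 log2 units 50 and 7. Averaging each gene's probe sets gave 56 and 22. Leaving out 1 construct array gave 95 to 207 higher and 48 to 125 lower, 142 to 215 silent in the control and above background with a construct, and 155 to 185 in the opposite direction. The highest values for moved genes (207 and 125) and for genes silent in the control (215) came without the miR200ba429 array. With background at the 95th percentile of the nonspecific probe sets 228 genes went to background.

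By array, the 1.5-fold limit gave 590 higher and 522 lower with miR200c141, 391 and 382 with miR200ba429, and 1127 and 1167 with both clusters. The limit of 1.5 log2 units gave 125 and 43, 57 and 15, and 221 and 161.

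For limma's test of any construct, centring gave 18 higher and 2 lower, a pooled spread 23 and 7, no trend 0 higher and the background filter 1 higher. Leaving out 1 array gave 2 to 224 higher and 0 to 112 lower. Without miR200c141 there were 2 higher, without miR200ba429 224 higher and 112 lower, and without both clusters 40 and 7. The line difference called 3 higher without MDST8, 0 higher and 0 lower without HUTU-80, 9 higher without the arrays with both clusters, and 9 higher and 3 lower with the HUTU-80 arrays separate. It called 2 lower with probe sets averaged, and 0 lower without a trend or with the background filter. The cause of these shifts was not tested.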

Other observations

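Both ligands of the gut receptor GUCY2C lay away from the control, in opposite directions. GUCA2A, guanylin, stood at 9.57 in the control and at 10.94, 10.58 and 10.76 with miR200c141, miR200ba429 and both clusters (1.19 ± 0.16, SE, limma adjusted p = 0.0831). GUCA2B, uroguanylin, stood at 10.47, 10.79 and 10.28 with the constructs, with differences from the control of −1.53, −1.21 and −1.72 (−1.49 ± 0.19, adjusted p = 0.069). Neither passed the test, and the genes were singled out after their values were seen.

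A few further genes were singled out after their values were seen, so they stand for no group. The subunits of meprin, a brush border metalloprotease, were MEP1A, at 4.17 in the control and 6.73, 5.96 and 6.84 with a construct, and MEP1B, at 8.34 in the control and higher by 1.66, 1.09 and 2.03. CAPN9, a gut calpain like CAPN8, stood at 6.28 and then at 7.62, 7.56 and 8.56. BIK, which promotes apoptosis, stood at 4.95 and then at 6.53, 6.43 and 6.54. Among lower genes were the related neuropeptide precursors NPW, at 9.46 and then 7.74, 8.28 and 7.54, and NPB, at 5.78 and then 4.02, 4.77 and 4.24. DCX, a microtubule protein of neurons, stood at 8.25 and then at 7.04, 6.75 and 6.60. None of these passed limma's test (adjusted p from 0.1676 for MEP1A to 0.3481 for NPB).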
